A study of Mus musculus with 2 samples.

Results

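The complement components and receptors described here are 9 genes, C1qa, C1qb, C1qc, C3, C3ar1, C5ar1, Cfb, Cfp and C4b, of the 32285 genes in the count matrices. They were picked out by symbol from the gene column of the matrices and not by a threshold on any measured value. Earlier results of these data were known when they were chosen. The mice were wild-type males of the C57BL/6 strain (C57BL/6J in the methods), 2 months old, with a full-depth 1.8 mm defect of the frontal bone of the calvaria, and the tissue was taken 7 days after injury. One group received gambogic amide (GA), described in the labels as an activator of the nerve growth factor receptor TrkA, and the other received the 10% DMSO vehicle (Control). The labels give 1.2 mg/kg GA in 100 µL by intraperitoneal injection from 24 h before injury and then every day for 1 week, whereas the methods of the study give 2 mg/kg for 4 weeks. Which of the doses applied to these mice is not settled by the sources used here.

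Each group was 1 single-cell library made from the pooled tissue of 5 mice. No replicate library exists, so the spread between mice is unknown, no p-value is given, and a difference between GA and Control is a difference between 2 libraries. The intervals below are 95% intervals for counting error only, exact Poisson for levels, exact binomial (Clopper-Pearson) for shares and exact conditional binomial for ratios. A level is the number of UMIs (unique molecular identifiers, each marking 1 captured RNA molecule) of a gene per 1000000 UMIs of the same cells, written CPM. A ratio is the log2 of the level in GA over that in Control. Because the libraries count 3′ ends, levels are compared between cells and not between genes.

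Complement is a cascade of plasma proteins, made mainly in the liver and also locally in tissue by myeloid and stromal cells. C1q, a hexamer built from the A, B and C chains that C1qa, C1qb and C1qc encode, opens the classical pathway and also binds dying cells. C4 and C3 are cleaved in turn and their fragments coat targets, factor B (Cfb) supplies the protease of the alternative C3 convertase, and properdin (Cfp) stabilises that convertase. The released peptides C3a and C5a act through the receptors C3AR1 and C5AR1, which in bone are known on myeloid cells and osteoclasts.

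The 3 C1q genes lie side by side on the minus strand of chromosome 4 within 18675 bases (GRCm38, GENCODE vM21), C1qb at chr4:136880129-136886187, C1qc at chr4:136889804-136893065 and C1qa at chr4:136895917-136898803. C4b at chr17:34728380-34743882 and Cfb at chr17:34856374-34862518 lie in the complement gene cluster of the major histocompatibility region, with C3 farther along at chr17:57203970-57228136. C3ar1 is at chr6:122847138-122856161, C5ar1 at chr7:16246743-16259540 and Cfp at chrX:20925454-20931555. All 9 are protein-coding and on the minus strand. The near-identical C4a lies at chr17:34809092-34823464, and reads shared by both copies can be lost or assigned to either, so the level of C4b is uncertain. C4a had 18 UMIs in GA and 35 in Control, against 5425 and 9260 for C4b.

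RefSeq promoter windows (GRCm38.p6, 250 bases before to 50 after the RefSeq gene start) matched C1qb, C1qc, C3ar1, C5ar1, C3 and Cfp. The RefSeq start can differ from the GENCODE gene start given above, as it does for C1qc and C5ar1. The windows of 2 adjacent C1q genes and of C3 are printed because, within macrophage-like cells, C1q and C3 were highest in different clusters. Both strands were searched for AGGAAGT, a sequence bound by ETS factors such as PU.1, and for TTGCNNAA, a C/EBP-type sequence, which share no overlap in these windows. Capitals mark the matches, with ACTTCCT being AGGAAGT read on the other strand. The sequences run 5′ to 3′ on the gene's strand:
C1qb, chr4:136886151-136886450, minus strand: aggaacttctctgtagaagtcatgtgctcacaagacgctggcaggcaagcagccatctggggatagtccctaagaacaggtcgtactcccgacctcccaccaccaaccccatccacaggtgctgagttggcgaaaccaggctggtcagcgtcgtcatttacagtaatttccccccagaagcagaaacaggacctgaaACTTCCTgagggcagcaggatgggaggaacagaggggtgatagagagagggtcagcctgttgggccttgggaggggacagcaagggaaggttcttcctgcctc
C1qc, chr4:136892865-136893164, minus strand: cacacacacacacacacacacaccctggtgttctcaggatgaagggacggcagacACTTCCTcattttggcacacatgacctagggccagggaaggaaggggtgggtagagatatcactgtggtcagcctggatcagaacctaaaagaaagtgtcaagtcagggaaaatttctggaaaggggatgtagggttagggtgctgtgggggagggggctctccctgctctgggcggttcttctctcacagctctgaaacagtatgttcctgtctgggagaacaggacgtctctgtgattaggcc
C3, chr17:57228087-57228386, minus strand: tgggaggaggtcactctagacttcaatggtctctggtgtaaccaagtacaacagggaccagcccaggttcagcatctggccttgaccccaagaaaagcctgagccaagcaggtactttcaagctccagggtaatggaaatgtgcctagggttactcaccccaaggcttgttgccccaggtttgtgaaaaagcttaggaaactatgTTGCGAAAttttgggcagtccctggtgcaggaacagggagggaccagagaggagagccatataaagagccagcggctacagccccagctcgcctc
AGGAAGT was present in 3 of the 6 windows (C1qb, C1qc and C5ar1, the last with 2 matches) and in 9.35% of 32851 promoter windows of the same length. TTGCNNAA was present in 1 of the 6, C3, and in 10.8% of all windows. The motifs were picked after the windows had been read, and a match describes letters, not binding.

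After filtering, 8380 GA cells with a median of 10968.5 UMIs and 7553 Control cells with a median of 16299 were kept, and 23 cell barcodes were shared by the deposited libraries. The libraries differed in make-up. Neutrophil-like cells were 52.6% of GA cells (95% interval 51.5 to 53.6%) and 27.6% of Control cells, macrophage-like cells 16.1% and 23.6%, and cells of the mesenchymal lineage 10.3% and 22.9%. Clusters left without a name held 3.37% of GA and 4.14% of Control cells. The cluster named from stem and progenitor markers was led by Elane and Mpo, and is called the Elane and Mpo cluster here.

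Each member had its UMIs concentrated in few cell classes. The C1q chains and C3ar1 belonged to macrophage-like cells, which held 91.0% of the C1q UMIs in GA and 93.2% in Control, and 92.2% and 94.4% of the C3ar1 UMIs. Cfb and C4b belonged to the mesenchymal lineage, with 81.0% and 91.0% of Cfb UMIs and 87.4% and 92.4% of C4b UMIs. C3, C5ar1 and Cfp were spread over several classes.

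**Figure D1:**
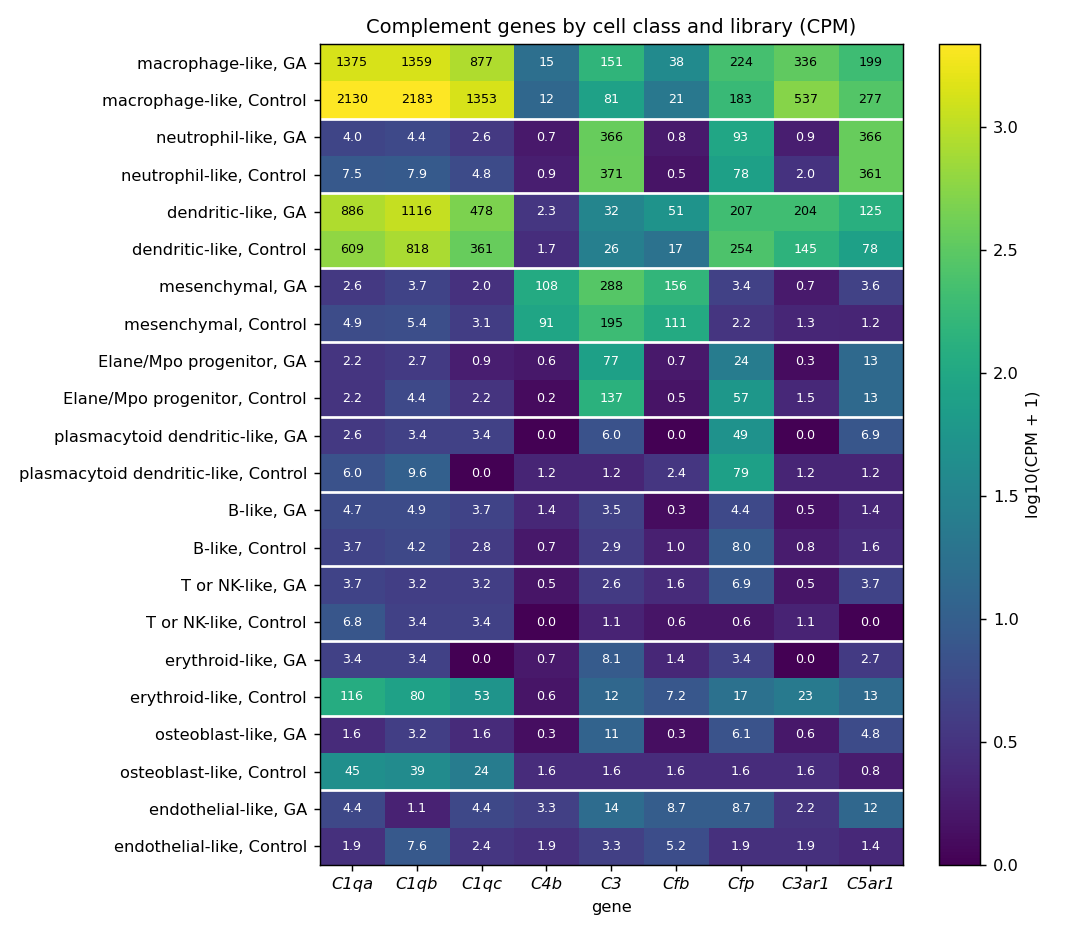
Level of each member in the 11 cell classes with at least 50 cells in each library. Each row is a class in 1 library, each column a gene, the printed number the CPM and the colour log10(CPM + 1). The C1q chains and C3ar1 were high in the macrophage-like and dendritic-like rows, Cfb and C4b in the mesenchymal rows, and C5ar1 in the neutrophil-like and macrophage-like rows.

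For C3, neutrophil-like cells held 44.9% of the UMIs in GA and 20.5% in Control, the mesenchymal lineage 36.4% and 64.8%, and macrophage-like cells 15.1% and 11.7%. For C5ar1, neutrophil-like cells held 66.6% in GA and 31.9% in Control, and macrophage-like cells 29.5% and 63.6%. For Cfp, macrophage-like cells held 58.6% and 66.8% and neutrophil-like cells 29.8% and 10.97%. The leading source of C3 and of C5ar1 was thus a different class in each library, alongside the different shares of cells.

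Over all cells, none of the 9 members was more than 2-fold higher in GA, where 3.13% of 15319 genes with at least 200 UMIs were, and none was more than 2-fold lower, where 7.02% were. C3, C5ar1 and Cfp were higher in GA and the other members lower. The C1q sum was 857.4 CPM in GA and 1347 CPM in Control, C3ar1 78.8 and 126.1 CPM, and C4b 33.8 and 50.4 CPM. C5ar1 was at 145.8 CPM in GA and 96.3 CPM in Control. Weighting the GA classes to the Control make-up gave a ratio of -0.22 for C5ar1 against 0.60 as measured, 0.54 for Cfb against -0.24, and 0.25 for C4b against -0.58. For these 3 genes the direction over all cells was opposite to that at equal shares of the classes. C1q (-0.55 against -0.65), C3ar1 (-0.58 against -0.68), C3 (0.49 and 0.49) and Cfp (0.19 against 0.44) kept their direction at equal class shares. This weighting left the cluster shares inside each class as they were. In macrophage-like cells those shares also differed between the libraries, as given below.

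In macrophage-like cells, the recognition component C1q was at 3611 CPM (3591 to 3631) in GA and 5665 CPM (5642 to 5688) in Control, a ratio of -0.65. The chain ratios were alike, -0.63 for C1qa, -0.68 for C1qb and -0.62 for C1qc. The C3a receptor gene C3ar1 was at 336.2 CPM in GA and 537.5 in Control (-0.68), and the C5a receptor gene C5ar1 at 198.9 and 276.8 (-0.48, but 0.0002151 when the libraries were clustered without alignment). C3 ran the other way, at 150.9 CPM in GA and 81.5 in Control (0.89). Cfb was at 38.2 and 20.6 CPM (0.89), Cfp at 223.7 and 182.9 (0.29), and C4b at 15.5 and 12.2 (0.35). None of the 9 members passed 2-fold upward, where 5.25% of 10607 genes did, or downward, where 1.67% did.

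**Figure D2:**
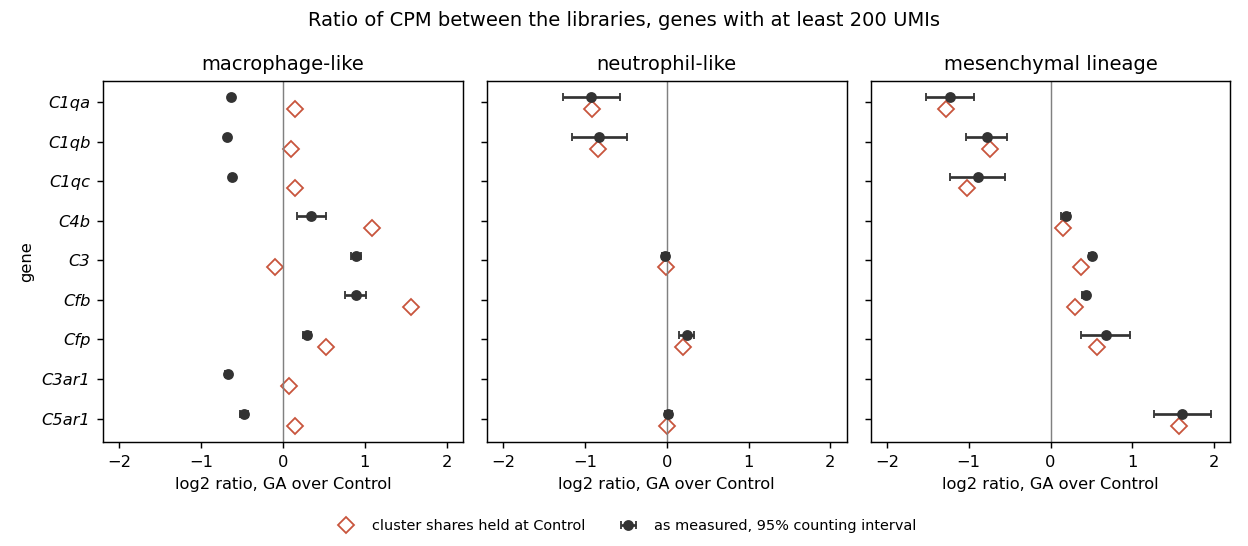
Log2 ratio of GA over Control for the members with at least 200 UMIs in 3 classes. Filled circles are the ratios as measured, with exact 95% counting intervals, and open diamonds the ratios with cluster shares held at those of Control. In macrophage-like cells the C1q chains, C3, C3ar1 and C5ar1 lay on opposite sides of 0 in the circles and the diamonds.

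These class ratios moved with the make-up of the class. Its 4 clusters were led by Arg1 and Spp1 (31.4% of GA and 41.8% of Control macrophage-like cells), Apoe and Fcrls (24.1% and 36.6%), Ccr2 and Ly6c2, markers of inflammatory monocytes (42.9% and 20.7%), and Cd5l and Fcna (1.63% and 0.843%). With the cluster shares of GA set to those of Control, a weighting chosen after the data had been seen, the ratio of C1q was 0.13, of C3ar1 0.07, of C5ar1 0.15 and of C3 -0.09, all of the opposite sign to the class ratio. Under the same weighting Cfb was at 1.56, Cfp at 0.53 and C4b at 1.09.

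The Ccr2 and Ly6c2 cluster stood apart from the other 3 in both C1q and C3. C1q was at 4200.5 CPM in the Arg1 and Spp1 cluster, 10355 in the Apoe and Fcrls cluster, 7655 in the Cd5l and Fcna cluster and 19.9 in the Ccr2 and Ly6c2 cluster. C3 was at 39.4, 42.9, 35.9 and 280.8 CPM in the same order, so that the monocyte cluster was lowest for C1q and highest for C3, while C3 differed little among the other 3. C3ar1 followed C1q in being low there, at 11.8 CPM against 686.0 and 576.6 in the Arg1 and the Apoe clusters. C3ar1 was also low, at 47.4 CPM, in the Cd5l and Fcna cluster despite its C1q, and C5ar1 was lowest there, at 24.4 CPM. Cfp was at 157.5 CPM or more in all 4 clusters, with 611.4 CPM in the Cd5l and Fcna cluster.

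**Figure D3:**
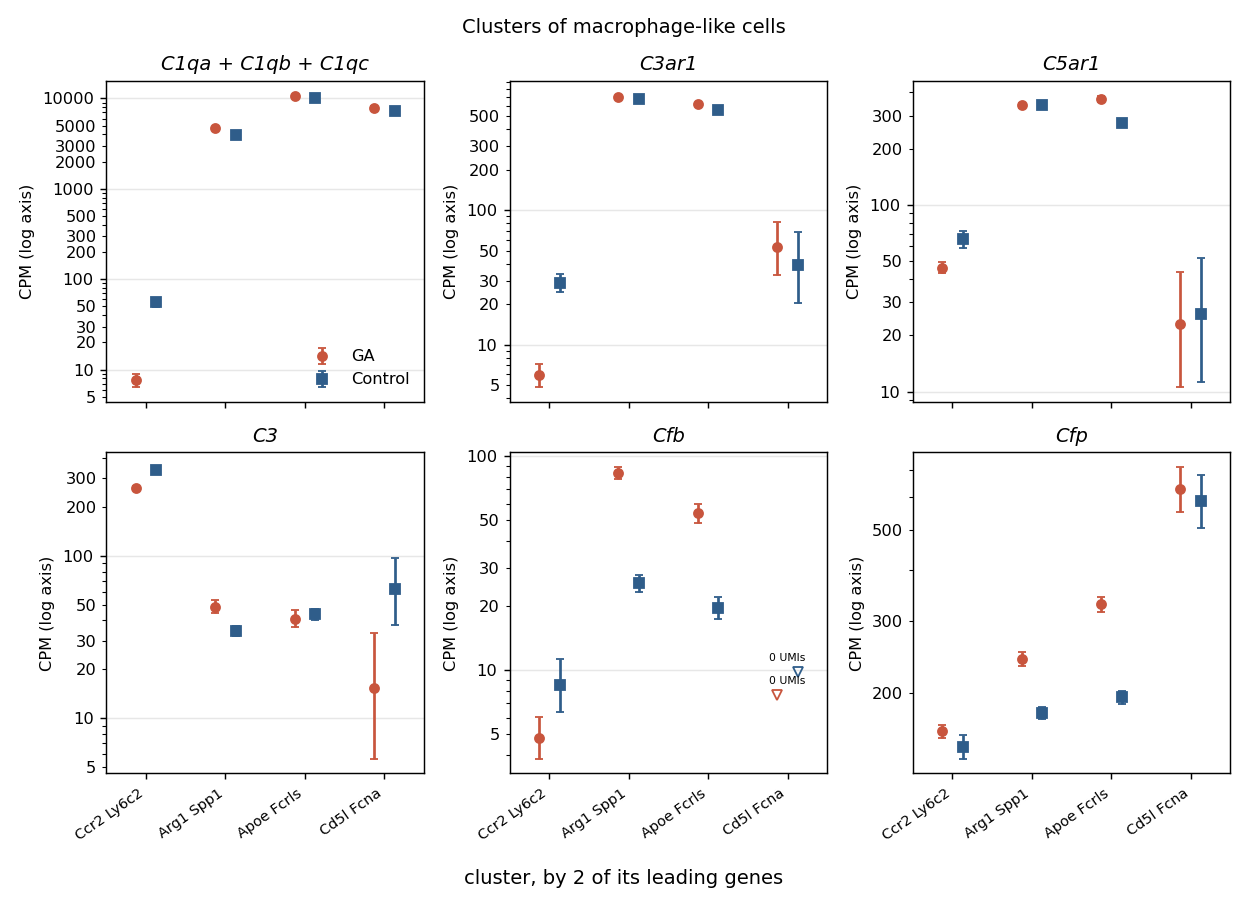
Levels of C1q and 5 other members in the 4 macrophage-like clusters, in CPM on a log axis, 1 point per library with its exact Poisson 95% interval. Open triangles mark 0 UMIs, at the level of 3 counts. C1q and C3ar1 were lowest and C3 highest in the Ccr2 and Ly6c2 cluster, and Cfb was higher in GA in the Arg1 and Apoe clusters.

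Within the Arg1 and the Apoe clusters, C1q and C3ar1 were close between the libraries. C1q was at 4672 CPM in GA and 3952 in Control in the Arg1 and Spp1 cluster (0.24), and at 10679.6 and 10203 in the Apoe and Fcrls cluster (0.07). In the Ccr2 and Ly6c2 cluster it was at 7.61 CPM (6.35 to 9.04) and 55.4 (49.5 to 61.7), a ratio of -2.86. This ratio was -1.38 without the 5 top cells of each library and as low as -7.60 under another of the alternative settings. C3ar1 was at 5.90 and 28.9 CPM there (-2.29), where 1.92% of 8241 genes passed 2-fold downward. The GA level of C1q was below that of GA B-like cells (13.3 CPM), which should lack it, so the C1q ratio is one against background. The Control level was above that of Control B-like cells (10.8 CPM). C3 was at 261.5 and 336.8 CPM in the Ccr2 and Ly6c2 cluster (-0.37) and at 48.7 and 34.4 CPM in the Arg1 and Spp1 cluster (0.50). C3ar1 differed by 0.04 and 0.14 on the log2 scale in the Arg1 and the Apoe clusters, C5ar1 by -0.01 and 0.42, and Cfp by 0.44 and 0.75.

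In the Arg1 and Apoe clusters Cfb was the member with the largest ratio. It was at 83.2 CPM (77.8 to 88.9) in GA and 25.4 (23.2 to 27.7) in Control in the Arg1 and Spp1 cluster, a ratio of 1.71, where 1.31% of 8568 genes were more than 2-fold higher. In the Apoe and Fcrls cluster it was at 54.1 and 19.5 CPM, a ratio of 1.47, where 0.887% of 7663 genes were. Here C4b was at 57.9 and 28.5 CPM (1.02), but at 0.21 when each cell was thinned to 2000 UMIs. Cfb was low in the other 2 clusters, at 4.83 and 8.54 CPM in the Ccr2 and Ly6c2 cluster and with 0 UMIs in the 37 cells of the Cd5l and Fcna cluster. Among 18 finer sub-clusters, 14 had at least 20 Cfb UMIs, and Cfb was higher in GA in 13 of these and more than 2-fold higher in 10. Sub-clusters of 1 library are not replicates. Cfp was higher in GA in 14 of 17 sub-clusters and more than 2-fold higher in 1. The share of all genes higher in GA was not counted in these sub-clusters. Over the macrophage-like class the median gene was at 0.12.

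C1q marked a subset of the macrophage-like cells. All 3 chains had a UMI in 47.4% of GA and 67.2% of Control cells, and none had in 40.6% and 23.3%, with a median of 2 and 82 C1q UMIs per cell. The share of cells with any C1q UMI was 59.4% and 76.7%, or 48.5% and 68.8% after thinning each cell to 2000 UMIs. T or NK-like cells, which should lack C1q, gave 9.38% and 9.87%, or 2.12% and 3.20% thinned. Median depths were 21729.5 and 21392 UMIs in macrophage-like cells and 8796 and 6941 in T or NK-like cells. C3ar1 had a UMI in 58.3% and 79.7% of macrophage-like cells, or 37.9% and 53.9% thinned, and in 0.521% and 0.897% of T or NK-like cells.

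C1q was also seen, at levels from low to high, outside the macrophage-like and dendritic-like cells. An unnamed cluster of 46 cells was at 4113 CPM in GA and 4590 in Control. The 15 GA Schwann-like cells were at 7773 CPM (309 UMIs) and the 13 Control cells at 457.2 (178 UMIs), at median depths of 1692 and 26458 UMIs. The macrophage markers Csf1r, Adgre1 and Mrc1 moved with C1q in these cells, at 553.4 CPM in GA and 48.8 in Control. The part of macrophage RNA in this difference was not tested. Neutrophil-like cells had 20.2 CPM of C1q in Control and a 95% interval of 10.03 to 12.04 CPM in GA, and all 3 chains were seen in 2 of 4404 and 3 of 2084 cells. Few cells carried most of the C1q in some other classes. The top 5 cells held 94.2% of 449 UMIs in Control erythroid-like cells, 93.7% of 268 in Control osteoblast-like cells and 95.7% of 761 in GA osteoclast-like cells. The C1q differences between libraries in those classes rest on these cells, whose nature was not tested.

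In macrophage-like cells the balance of the 3 chains was close between the libraries, and it varied between cell groups. C1qa, C1qb and C1qc gave 38.1%, 37.6% and 24.3% of C1q UMIs in GA macrophage-like cells and 37.6%, 38.5% and 23.9% in Control. Over both libraries the dendritic-like cells gave 34.8%, 45.4% and 19.8%. The Cd5l and Fcna cluster gave 45.1%, 24.2% and 30.7%, with the lowest C1qb share of the 4 macrophage-like clusters. An unnamed cluster of 46 cells that is also high in Cd5l gave 52.7%, 17.0% and 30.3%. In the unnamed cells as a whole the C1qb share was 27.2% in GA (25.1 to 29.4%) and 35.7% in Control (33.9 to 37.6%). These cells are a mix of clusters, and the cluster of 46 cells held 602 of their 1657 C1q UMIs in GA and 210 of 2568 in Control. The part of this mix in the difference was not tested. Across single macrophage-like cells the chains varied together, with Pearson r of 0.957 to 0.971 over 3127 cells. In the same cells C1qb and C3ar1 had r of 0.688, C3ar1 and C5ar1 0.669, and C3 and C3ar1 -0.607. These r values are descriptions over cells that share a library and a depth.

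Dendritic-like cells, 174 in GA and 344 in Control, had C1q at 2479.5 and 1788 CPM (0.47). No C1q UMI was seen in 49.4% of GA and 57.0% of Control cells, and the median was 1 and 0. All 3 chains were seen in 35.6% and 24.1%. They had C3ar1 at 204.0 and 144.6 (0.50) and C5ar1 at 125.3 and 77.6 (0.69). Cfb was again the member with the largest ratio, at 51.2 CPM (43.9 to 59.3) in GA and 16.9 (13.9 to 20.4) in Control (1.60), where 0.675% of 5776 genes passed 2-fold upward. Cfp was the exception, at 206.9 and 254.3 CPM (-0.30). With each cell named by its own marker score in place of its cluster, the ratio of C3ar1 turned to -0.38, and C1q was at 1.21 and C5ar1 at 1.42. The macrophage markers Csf1r, Adgre1 and Mrc1 summed to 810.9 and 649.8 CPM in these cells, against 1156 and 1324 in macrophage-like cells, and moved in the direction of C1q. Their part in the result was not tested.

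In neutrophil-like cells, C3, C5ar1 and Cfp were the members with a level well above background. C3 was at 366.1 CPM (360.4 to 371.9) in GA and 370.5 (361.0 to 380.2) in Control, a ratio of -0.02. C5ar1 was at 365.7 and 361.4 CPM, a ratio of 0.02. Cfp was at 92.6 and 78.2 CPM (0.24). The intervals of C3 and C5ar1 overlapped between the libraries and those of Cfp did not. None of the 5 members with at least 200 UMIs passed 2-fold upward, where 0.218% of 8248 genes did, or downward, where 0.776% did.

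C5ar1 had a UMI in 92.7% of GA and 85.8% of Control neutrophil-like cells, at medians of 7059 and 5091.5 UMIs, and in 55.8% and 54.2% after thinning. In B-like cells, which should lack it and had medians of 6472 and 5934 UMIs, the share was 1.03% and 1.21%, or 0.686% and 0.173% thinned. C3 had a UMI in 64.8% and 56.8% of neutrophil-like cells, or 36.6% and 34.7% thinned, against 3.93% and 2.59% of B-like cells. The gap in the unthinned shares narrowed at equal depth.

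**Figure D4:**
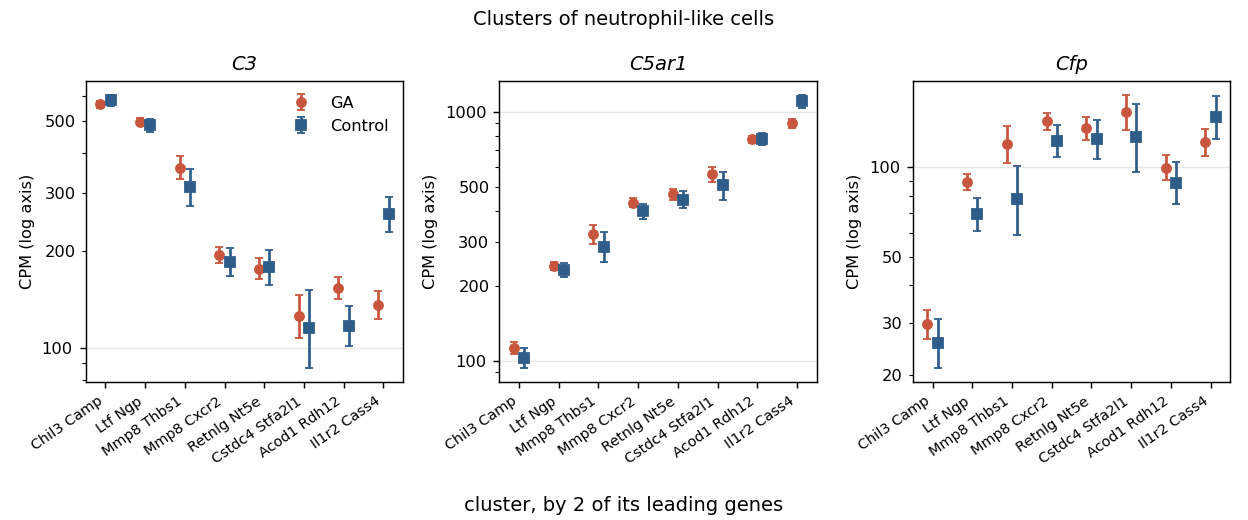
Levels of C3, C5ar1 and Cfp in the 8 neutrophil-like clusters, ordered by C5ar1, in CPM on a log axis, 1 point per library with its exact Poisson 95% interval. C3 was highest in the Chil3 and Camp cluster, where C5ar1 was lowest.

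C3 was high in the neutrophil-like clusters with low C5ar1. The cluster led by Chil3 and Camp, genes of immature neutrophils, had C3 at 570.0 CPM and C5ar1 at 109.7, and the Ltf and Ngp cluster had 495.8 and 237.3. The Acod1 and Rdh12 cluster had C3 at 143.0 CPM and C5ar1 at 774.2, and the Il1r2 and Cass4 cluster 167.8 and 951.6. The remaining 4 clusters had C5ar1 from 311.3 to 546.5 CPM. C3 was lowest, at 123.3 CPM, in the Cstdc4 and Stfa2l1 cluster, and among the 3 clusters highest in C5ar1 the order of C3 was the same as that of C5ar1. Cfp was lowest, at 28.5 CPM, in the Chil3 and Camp cluster. Over 6488 single cells the r of C3 with C5ar1 was -0.244.

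The libraries were less than 1.5-fold apart in C5ar1 in all 8 clusters, and in C3 in each but the Il1r2 and Cass4 cluster. There C3 was at 135.9 CPM in GA and 258.9 in Control (-0.93), and C5ar1 at 898.4 and 1103 (-0.30). In the Elane and Mpo cluster C3 was at 76.9 and 136.7 CPM (-0.83) and Cfp at 24.1 and 57.5 (-1.25, or -0.61 after thinning, where 0.831% of 7098 genes passed 2-fold downward), whereas C5ar1 was at 12.9 and 12.7 CPM (0.03).

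In cells of the mesenchymal lineage, C3, Cfb and C4b were the abundant members. C3 was at 269.6 CPM (265.0 to 274.4) in GA and 189.8 (187.0 to 192.6) in Control, a ratio of 0.51. Cfb was at 145.5 and 107.8 CPM (0.43), and C4b at 100.9 and 88.7 (0.19). Of the 8 members with at least 200 UMIs, C5ar1 passed 2-fold upward (1.61, but 0.59 after thinning), where 1.81% of 12805 genes did, and C1qa passed 2-fold downward, where 1.69% did. Both were near background, C5ar1 at 3.70 and 1.21 CPM and C1qa at 2.53 and 5.93, and the ratio of the C1q sum, -0.96, was -0.21 with doublets kept. Thinning left 2000 UMIs per cell, against medians of 50355 in GA and 51035 in Control over the lineage. Thinned ratios of genes at low levels in these cells therefore rest on few UMIs, and their counting intervals were not computed. Neutrophil genes S100a8 and S100a9 moved with C5ar1, at 1595 CPM in GA and 202 CPM in Control over the lineage, and a sub-cluster of 18 GA and 3 Control cells high in Ngp and Camp held 32.2% of the 174 GA UMIs of C5ar1. Their part in the result was not tested.

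The mesenchymal complement genes came mainly from 1 cluster. The cluster led by Clec3b and Pi16, genes of adventitial fibroblasts, was 29.4% of the lineage in GA and 25.3% in Control. It held 90.6% and 95.3% of the lineage's C3 UMIs, 69.1% and 85.5% of its Cfb UMIs and 86.8% and 90.7% of its C4b UMIs. There C3 was at 912.3 CPM in GA and 763.0 in Control (0.26), Cfb at 375.2 and 389.1 (-0.05), and C4b at 327.0 and 339.7 (-0.06). The ratios of Cfb and C4b lay close to 0, and that of C3 had an interval of 0.22 to 0.29. The cells varied together in these genes, with r over 2592 cells of 0.881 for C3 with C4b, 0.796 for C3 with Cfb and 0.779 for Cfb with C4b.

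**Figure D5:**
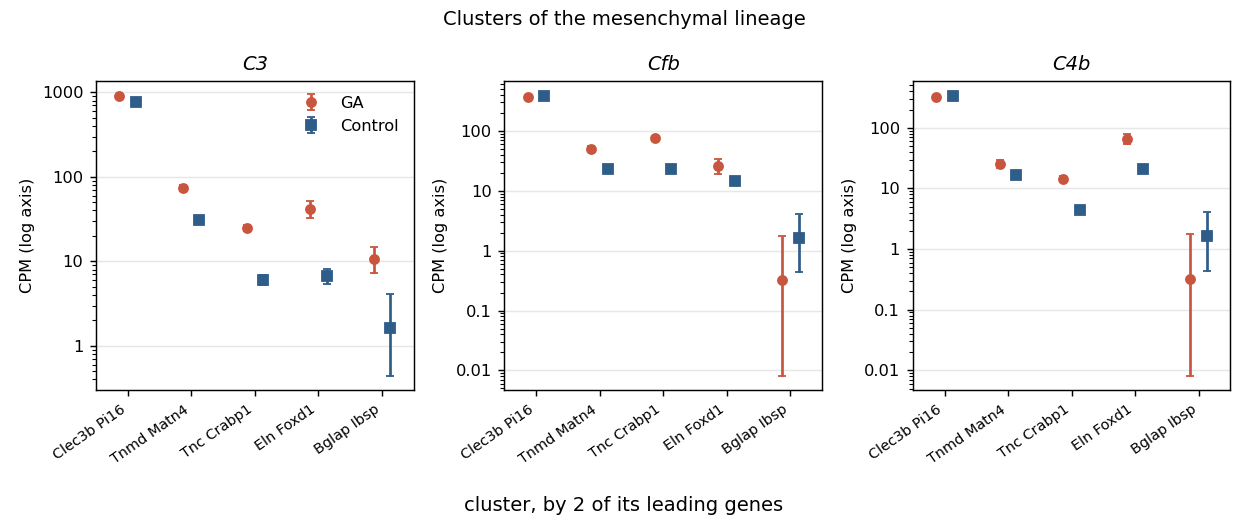
Levels of C3, Cfb and C4b in the 5 clusters of the mesenchymal lineage, in CPM on a log axis, 1 point per library with its exact Poisson 95% interval. All 3 were highest in the Clec3b and Pi16 cluster, where the libraries were close in Cfb and C4b and C3 was higher in GA. All 3 were higher in GA in the Tnc and Crabp1, the Tnmd and Matn4 and the Eln and Foxd1 clusters.

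The ratios were larger in the clusters with low levels. In the cluster led by Tnc and Crabp1, 38.0% of the lineage in GA and 29.5% in Control, C3 was at 24.96 CPM in GA and 5.99 in Control (2.06, or 2.80 after each cell was thinned to 2000 UMIs). Cfb was at 76.1 and 22.9 CPM (1.73) and C4b at 14.5 and 4.43 (1.71, or 0.63 after thinning). All 3 passed 2-fold, where 2.02% of 10927 genes did. The thinned ratios in this cluster and the next rest on few UMIs and have no counting interval. In the cluster led by the tendon gene Tnmd and by Matn4, C3 was at 73.3 and 30.9 CPM (1.25) and Cfb at 50.9 and 22.8 (1.16, but 0.94 without the 5 top cells of each library and 2.01 after thinning), where 0.885% of 8473 genes passed 2-fold upward. C4b was at 25.7 and 16.8 CPM there (0.61), but at -0.03 without the 5 cells of each library with the most C4b UMIs. In the Eln and Foxd1 cluster, 6.24% of the lineage in GA and 20.8% in Control, C4b was at 66.3 and 21.2 CPM (1.64, where 2.12% of 8221 genes passed 2-fold upward) and Cfb at 25.95 and 14.8 (0.81). Without the 5 cells of each library with the most UMIs of the gene, these ratios were 0.91 and 0.0579, so that part of both ratios rested on few of the 54 GA cells.

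In the cluster that held most of the C3, Cfb and C4b UMIs, the libraries were close in Cfb and C4b. C3 was higher in GA there, at 912.3 CPM against 763.0. The ratios past 2-fold upward lay in clusters with less of these genes, and some were lower without the 5 top cells of each library. Among 14 sub-clusters of the lineage, C3 was higher in GA in 8 of 12 with at least 20 UMIs and more than 2-fold higher in 5, and more than 2-fold lower in 1. Cfb was higher in 9 of 12, more than 2-fold higher in 5 and more than 2-fold lower in 1. C4b was higher in 7 of 12 and more than 2-fold higher in 3. The share of all genes higher in GA was not counted in these sub-clusters. Over the lineage the median gene was at -0.02.

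The other genes of the cascade were read from a list of 54 complement genes in 7 roles, which holds the 9 members. Over all cells 36 of the 54 had at least 200 UMIs, with a median ratio of -0.31 against -0.08 for all genes, of which 2 passed 2-fold upward (Cd55b and Fcnb) and 2 downward (Clu and Vtn), against 3.13% and 7.02% of all genes. In macrophage-like cells 23 were measured and 1 passed upward, the lectin pathway gene Fcnb, at 23.2 CPM in GA and 4.33 in Control (2.42), where 5.25% of all genes passed upward. S100a8 and S100a9 moved with Fcnb, at 2583 and 254.8 CPM in these cells, and Fcnb was at 244.8 and 372.4 CPM in neutrophil-like cells. The part of neutrophil RNA in this result was not tested, nor was that of the different cluster shares of macrophage-like cells in the libraries. In neutrophil-like cells 15 were measured and none passed either way, against 0.218% upward and 0.776% downward of all genes. In the mesenchymal lineage 27 were measured, 5 passed upward and 2 downward, against 1.81% and 1.69% of all genes. The 5 included the convertase inhibitors Cd55, at 191.4 and 77.3 CPM (1.31), and Cd55b, at 6.96 and 1.66 CPM (2.07), and the others were C5ar1 and the leukocyte integrins Itgam, at 7.24 and 2.40 CPM, and Itgb2, at 7.32 and 3.60 CPM. Itgam was at 751.1 and 723.4 CPM in neutrophil-like cells, and the integrins moved with the S100a8 and S100a9 counts given above for the lineage. The 2 downward were C1qa and Vtn (-1.16). The median ratio of the list was -0.10 in macrophage-like cells, -0.02 in neutrophil-like cells and 0.30 in the mesenchymal lineage, against 0.12, -0.13 and -0.02 for all genes measured there.

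In the mesenchymal lineage the ratios of the early classical proteases and their inhibitor lay between those of C4b (0.19) and Cfb (0.43). C1ra was at 131.5 CPM in GA and 103.6 in Control (0.34), C1s1 at 183.4 and 150.6 (0.28), C2 at 43.1 and 34.7 (0.31) and Serping1, the C1 inhibitor, at 386.3 and 314.7 (0.30). Not all regulators went this way, as Clu was at 23.5 and 37.9 CPM (-0.69). Cluster shares were not held at Control for these genes, so the part of the lineage's make-up was not tested. Of 7 genes of the terminal pathway, 2 had at least 200 UMIs over all cells and none had in macrophage-like, neutrophil-like or mesenchymal-lineage cells. Among terminal genes below that limit, the mesenchymal lineage had 37 and 15 UMIs of C9 (2.34), 24 and 97 of C8g (-0.98) and 16 and 80 of Hc, the gene of C5 (-1.28). Their counting intervals did not reach 0, but those of C7 (19 and 25 UMIs, 0.64) and C6 (1 and 3 UMIs) held 0. Genes of other roles below the limit also differed, such as Colec10 (66 and 19 UMIs, 2.83) and Cfi (28 and 151, -1.39). The share of all genes below the limit that differed so was not counted, and these ratios were not recomputed under the alternative settings.

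Genes with the profile most like each member's were taken from the Pearson r of log levels over 22 profiles, 11 classes in each of 2 libraries, among 15319 genes. For C1qa these were C1qb (0.984), Fcrls (0.978) and C1qc (0.975), and Fcrls was also among the 3 nearest of C1qb and C1qc. For C3ar1 they were Ms4a7 (0.991), Msr1 (0.985) and C1qb (0.97), and for C5ar1 Ccr1 (0.978), Treml4 (0.972) and Clec4d (0.97). For C3 the nearest, C1rl, reached 0.921, and for C4b the nearest, Ereg, 0.941. For Cfb it was Ahnak2 at 0.952, and for Cfp it was Cd300a at 0.97. Ranked by Spearman's rho instead, 5 of the 9 members (C1qa, C1qb, C5ar1, Cfb and C4b) shared none of these 3 nearest genes, so the neighbours depend on the measure. The profiles of 1 class share its cells between genes, and the values describe likeness only.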

How the data were processed

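Single-cell suspensions of calvarial defect tissue from GA-treated and Control mice were sequenced as 1 10x Genomics library a group. The deposited matrices hold raw UMI counts per gene and cell, which the authors made with Cell Ranger (7.0.1 per the file headers) on mm10. The 10x kit version and any removal of background RNA by the authors are not settled by the sources used here. The 9322 GA and 8718 Control barcodes, with 182949385 and 214993030 UMIs, were kept with 200 to 9500 genes, 500 to 140000 UMIs and at most 15% mitochondrial counts. Scrublet's automatic threshold marked 0 GA and 39 Control cells, so the cells with the highest scores (656 and 540) were removed as predicted doublets. The 2000 most variable genes, without complement genes, gave 50 components, which were aligned between libraries with a Harmony-type correction and clustered by Leiden at resolution 1 (Python 3.11.15, scanpy 1.11.5, leidenalg 0.10.2, numpy 2.4.6, scipy 1.17.1). Clusters were named from marker lists, and no cell annotation was used.

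UMIs were summed per library and class or cluster and divided by all UMIs of those cells. Ratios were computed for genes with at least 20 UMIs (members in classes) or 200 UMIs (members in clusters, and background). The ratio calculation was tested on simulated data. Cells were thinned to 2000 UMIs for shares, which left out 158 GA and 200 Control cells. Genes named beyond the members were those of the complement list with at least 200 UMIs and past 2-fold in either direction, and the 3 genes most like each member. The classical pathway, inhibitor and terminal pathway genes described, and the examples below 200 UMIs, were named in addition. The members, gene lists and tests were chosen with earlier results of these data known, and the thresholds for naming clusters were set after seeing the data. Since 1 library a group was sequenced, no test was made. Alternatives were no doublet removal, no alignment, Leiden resolutions 0.5 and 2, complement genes among the variable genes, cells named one by one, at most 10% mitochondrial counts, ratios relative to the median gene, removal of estimated background RNA, thinning, leaving out the 5 cells with most UMIs of the gene, cluster shares held at Control, and Spearman's rho for gene likeness.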

Additional observations from a re-analysis of the deposited data

How the results depend on the processing

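In macrophage-like cells the ratio of C1q, -0.65 as reported, was -0.44 with doublets kept, -0.11 without alignment of the libraries, -0.50 at Leiden resolution 0.5, -0.62 with complement genes among the variable genes, -0.37 with cells named one by one, -0.24 at no more than 10% mitochondrial counts, -0.77 relative to the median gene, -0.39 thinned and -0.66 without the 5 top cells. It turned to 0.13 with cluster shares held at Control and 0.15 with sub-cluster shares held, weightings chosen after seeing the data. C3ar1 gave -0.49, -0.15, -0.53, -0.64, -0.39, -0.26, -0.79 and, thinned, -0.43 under the same settings, and turned to 0.0702 and 0.0666 under the weightings. In neutrophil-like cells C5ar1 was 0.23 with cells named one by one and 0.15 relative to the median gene, and Cfp 0.36 and 0.37. In the mesenchymal lineage C3 was 0.35 at resolution 2, 0.63 at 0.5, 0.68 with complement genes among the variable genes, 0.29 with cells named one by one, 0.76 thinned, 0.47 without the 5 top cells, and 0.37 and 0.27 under the weightings. C4b there was 0.0342, 0.29, 0.33 and 0.0488 under the first 4 of these, 0.0616 thinned and -0.0223 with sub-cluster shares held. Other ratios that turned were, in macrophage-like cells, C3 (-0.0937 and -0.0750) and C5ar1 (0.15 and 0.11) under the weightings, C5ar1 without alignment (0.0002151) and C4b thinned (-0.12), C3ar1 in dendritic-like cells named one by one (-0.38), and C4b in the Tnmd and Matn4 cluster without the 5 top cells (-0.0323). Of 421 alternative values of ratios and shares 251 stayed within the counting interval of the reported value, 157 lay outside it, and 13 more turned. Thinned values keep fewer UMIs but were set against the interval of the full counts, so they can lie outside it by counting error alone. Shares of cells with a UMI also fall with depth. The tally is therefore not a measure of processing alone. A value was counted as turned only where the reported interval had a single sign. Sign changes of other ratios were not counted, such as C3 in neutrophil-like cells (0.11 relative to the median gene) and C3ar1 in the Arg1 and Spp1 cluster (as low as -0.0076). The cause of these shifts was not tested, and the weightings are descriptions only. No paired analysis was possible because each group is 1 library.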
